A study of Mus musculus with 10 samples.

Results

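Imprinted genes are transcribed mainly from the copy inherited from a single parent, and 31 of them with known roles in growth, metabolism or behaviour were followed in the hippocampus of obese DU6 mice and FztDU control mice. A gene counted as found where a transcript cluster of the array, the set of probes for a gene, carried its symbol alone. This held for 30 of the 31 genes among the 22206 clusters measured. Snrpn was present only in a cluster shared with Snurf, the other protein of the same transcript, and that shared cluster is given apart. By textbook knowledge of the mouse, 16 of the 30 are expressed from the paternal copy, 8 from the maternal copy, and for 6 the active copy depends on the isoform or the tissue.

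Genomic imprinting rests on DNA methylation laid down differently in egg and sperm at imprinting control regions, from which long noncoding RNAs, insulators and chromatin marks set the activity of neighbouring genes, so that imprinted genes lie in domains. As a broad tendency, paternally expressed genes such as Peg3, Mest and Dlk1 favour fetal growth or the use of maternal resources, whereas maternally expressed genes such as Cdkn1c, Grb10 and Phlda2 restrain growth. Many of the genes stay active in neurons after birth, and loss of the paternal copies of the Prader-Willi domain causes overeating and obesity in humans. The array measures RNA of both copies together, so the active copy itself was not measured here.

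The mice were males of an outbred line selected for high body mass, called DU6 and labelled as polygenic obesity, and males of FztDU, the unselected outbred line that serves as its control. Per the labels the animals were killed at 21 to 22 weeks of age, although the study's text is not uniform on the age. Each line had 5 mice, and entire hippocampi were processed separately, each mouse on its own Clariom S Mouse array. No transgene, deletion or treatment is named for either line, and the genotype of single outbred mice is not known, so a difference is one between lines that differ at many loci.

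Array medians ran from 5.47 to 5.52 on the log2 scale, and 7 of 8 listed hippocampal neuron markers were found, all of them called expressed in both lines by the authors' table. The mean over those found was 6.96 in DU6 replicate 2 and 7.49 to 7.85 elsewhere. Their median log2 difference, DU6 minus FztDU, was -0.168. C1ql2 differed by -0.654 (unadjusted limma p 0.00216, adjusted 0.300) and Dsp by -0.716 (p 0.0509), while Fibcd1 alone was higher in DU6, by 0.172. Markers of neighbouring tissue were high in single mice, with no adjusted call between the lines. The mean over 8 choroid plexus markers was 8.99 and 8.90 in DU6 replicates 1 and 5 and 8.58 in FztDU replicate 5, against 5.54 to 6.70 in the other 7 arrays. The mean over 8 cerebellar markers was 9.71 in DU6 replicate 2 and 4.82 to 5.38 elsewhere, that over 6 thalamic markers was 8.68 in DU6 replicate 5 and 9.0 in FztDU replicate 5 and 6.46 to 7.66 elsewhere, and that over 10 hypothalamic markers ran from 4.19 to 4.39 in DU6 and from 4.06 to 4.44 in FztDU. The 3 arrays high in choroid plexus markers and the 1 high in cerebellar markers are called the 4 marker-high arrays. Among the imprinted genes followed, the 5 largest differences, and some others that moved when such arrays were left out, are given with and without them.

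Promoter windows of RefSeq on GRCm38.p6, each 250 bases before to 50 bases after a transcription start, matched 25 of the 30 genes. Sgce, Cdkn1c, Trappc9, Impact and Peg10 are named only. Shown are the windows of Dlk1 and Ndn, the members with an unadjusted p under 0.05 between the lines, of Nap1l5 and Inpp5f, which varied together most closely among the mice, and of Usp29, whose window shares 263 of its 300 bases with that of Peg3 on the other strand. Each runs 5′ to 3′ along the gene, with CpG dinucleotides, the places where imprints can be methylated, in capitals.
Dlk1 (chr12:109452573-109452872, plus strand): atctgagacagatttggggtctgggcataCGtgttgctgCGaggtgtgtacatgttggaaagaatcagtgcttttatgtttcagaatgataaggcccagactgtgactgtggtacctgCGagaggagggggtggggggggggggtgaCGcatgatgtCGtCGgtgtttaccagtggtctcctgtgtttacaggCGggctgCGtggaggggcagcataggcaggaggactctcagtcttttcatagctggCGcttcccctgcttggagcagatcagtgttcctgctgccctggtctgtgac
Ndn (chr7:62348027-62348326, plus strand): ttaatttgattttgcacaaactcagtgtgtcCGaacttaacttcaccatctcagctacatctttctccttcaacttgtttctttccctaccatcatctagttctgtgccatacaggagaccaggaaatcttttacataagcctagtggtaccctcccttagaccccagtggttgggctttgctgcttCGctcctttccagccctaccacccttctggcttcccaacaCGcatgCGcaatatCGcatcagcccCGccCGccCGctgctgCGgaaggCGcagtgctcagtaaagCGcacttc
Nap1l5 (chr6:58907077-58907376, minus strand): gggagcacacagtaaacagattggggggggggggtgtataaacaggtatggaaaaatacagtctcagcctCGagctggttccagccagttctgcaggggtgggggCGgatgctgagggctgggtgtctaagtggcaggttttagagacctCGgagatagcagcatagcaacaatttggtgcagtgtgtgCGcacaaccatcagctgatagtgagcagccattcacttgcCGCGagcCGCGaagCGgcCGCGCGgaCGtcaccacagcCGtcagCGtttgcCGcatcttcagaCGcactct
Inpp5f (chr7:128611115-128611414, plus strand): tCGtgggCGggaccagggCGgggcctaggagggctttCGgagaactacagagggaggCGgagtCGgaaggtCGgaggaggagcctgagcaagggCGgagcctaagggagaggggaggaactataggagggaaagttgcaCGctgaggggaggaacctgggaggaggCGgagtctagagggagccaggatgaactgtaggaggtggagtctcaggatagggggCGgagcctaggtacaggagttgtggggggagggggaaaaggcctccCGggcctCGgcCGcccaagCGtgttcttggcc
Usp29 (chr7:6730333-6730632, plus strand): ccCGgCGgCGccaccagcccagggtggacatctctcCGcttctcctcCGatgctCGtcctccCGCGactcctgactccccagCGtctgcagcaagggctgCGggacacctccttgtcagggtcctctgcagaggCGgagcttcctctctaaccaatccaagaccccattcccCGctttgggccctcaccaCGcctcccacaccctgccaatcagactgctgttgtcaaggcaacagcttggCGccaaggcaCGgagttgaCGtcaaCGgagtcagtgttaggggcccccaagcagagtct

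The 9 CpGs of the Dlk1 window are scattered over its length, the 11 of the Ndn window crowd towards its 3′ end, and the Nap1l5 window holds 17, clustered beside the start of the gene. The Inpp5f window, with 15, belongs to the long transcript, whereas the imprinted short transcript starts inside the gene. Over the 35 windows of the 25 genes the median was 17 CpGs, against 14 over the 18973 windows of 15541 genes on the array, and the median GC content was 58.0% against 57.0%. The hexamer TGCCGC, read on both strands and part of the motif that the imprint-protecting zinc finger protein ZFP57 recognises when methylated, stood in 9 of the 35 windows, or 25.7%, against 14.5% of all windows. Windows of the same gene overlap in part, and a match is a match of letters alone.

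None of the 30 was called by limma at an adjusted p under 0.05 with a fold over 2, a call that 0.113% of all clusters received, and none had an adjusted p under 0.05 alone, as 0.162% of all clusters did. At an unadjusted p under 0.05 there were 2 genes, Dlk1 and Ndn, or 6.67% of the 30 against 5.86% of all clusters. Both were higher in DU6, a direction that 2.7% of all clusters showed at that p, and none was lower, as 3.17% were. No gene separated the lines completely, as 1.22% of all clusters did. The smallest adjusted p of a member in limma was 0.794.

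The mean was higher in DU6 for 18 genes and lower for 12. The differences ran from -0.17 for Zim1 to 0.49 for Dlk1 on the log2 scale with a median of 0.04, against a median of 0.002 over all clusters. Without sign, the median difference was 0.098 for the 30 genes and 0.094 for all clusters, and the median SD within a line was 0.225 and 0.214. The list was thus close to the whole array both in the size of its differences and in its spread. The 95% interval of the difference stayed within 1.5-fold in either direction for 23 of the 30 genes and within 2-fold for 29, Plagl1 being the exception.

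**Figure D1:**
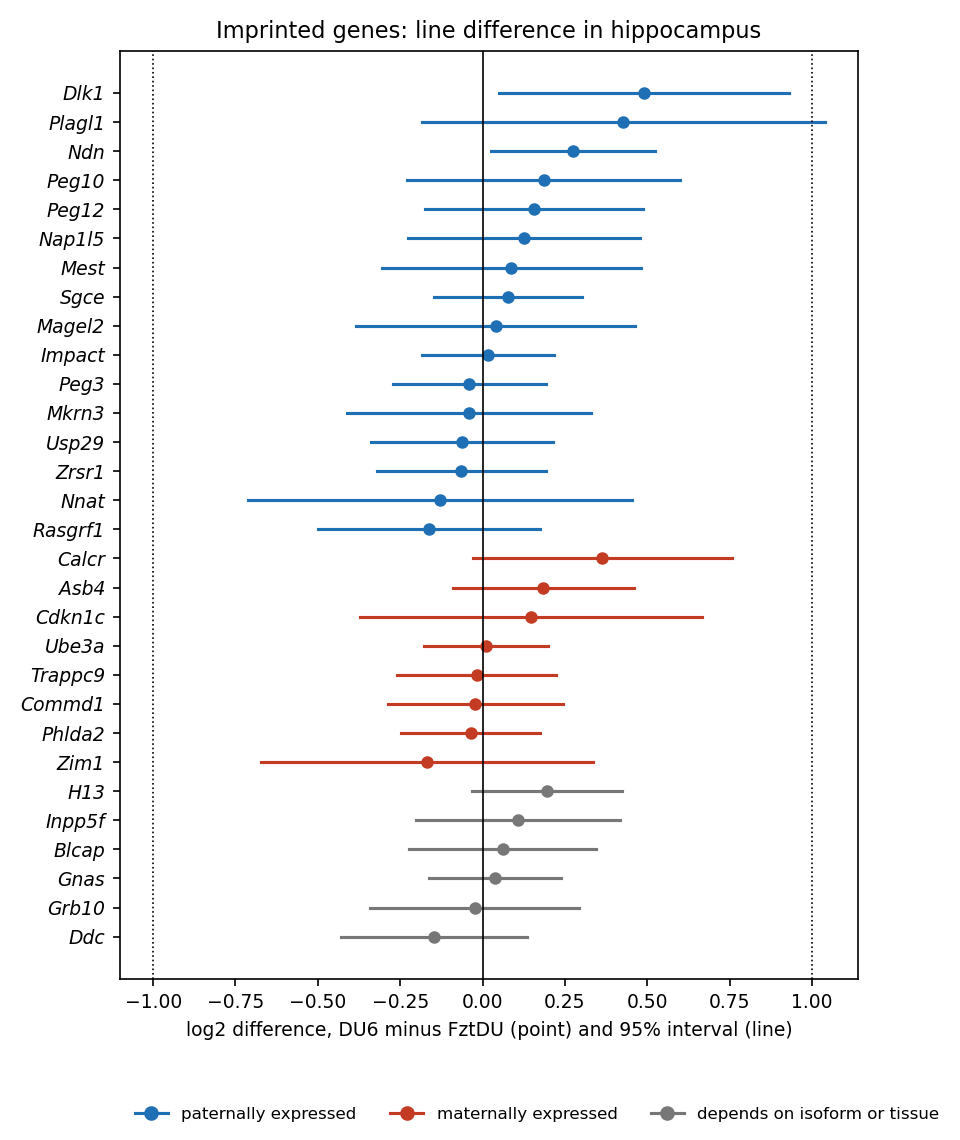
Log2 difference between the line means (DU6 minus FztDU, 5 mice each) for the 30 genes as points, with limma's 95% intervals as lines, coloured by the parental copy that is active; dotted lines mark a 2-fold difference. The intervals of Dlk1 and Ndn alone stay above 0, and that of Plagl1 alone reaches past 2-fold.

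Set side by side, the parental classes lay close together. The 16 paternally expressed genes had a median log2 difference of 0.06, with 10 above and 6 below 0 and differences from -0.16 to 0.49. That median changed sign, to -0.008 without FztDU replicate 4, -0.00875 without the 4 marker-high arrays and -0.015 with marker covariates. The 8 maternally expressed genes had a median of -0.004, with 4 above and 4 below 0 and differences from -0.17 to 0.36. The 6 genes whose active copy depends on isoform or tissue had a median of 0.05, with 4 above and 2 below. Both genes with an unadjusted p under 0.05 were paternally expressed, 2 of 16 or 12.5% of that class against 5.86% of all clusters, and neither passed without the 4 arrays high in choroid plexus or cerebellar markers or with the marker means as covariates. These medians are descriptions without a test, since genes of the same domain and the same mice are not independent.

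Dlk1 encodes a transmembrane protein of the Notch ligand type that restrains the differentiation of adipocyte precursors, and it lies at chr12:109452823-109463336 (mm10) on the plus strand. Its log2 value was 4.41, 4.39, 4.05, 4.41 and 5.11 in DU6 replicates 1 to 5 and 4.43, 3.96, 4.0, 3.44 and 4.09 in FztDU replicates 1 to 5. DU6 replicate 5 was highest and FztDU replicate 4 lowest, and FztDU replicate 1 lay above 4 of the 5 DU6 mice, so the lines overlapped. The means were 4.47 ± 0.39 and 3.98 ± 0.36 (SD, n = 5 per line), a log2 difference of 0.49 (SE 0.20, 95% interval 0.05 to 0.93) or 1.40-fold. Over all clusters limma gave a p of 0.0319 and an adjusted p of 0.794, and the exact permutation test gave 0.0714. DU6 replicate 5 is among the arrays with high choroid plexus markers. Without the 3 such arrays the difference was 0.33, with an unadjusted limma p of 0.162.

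Ndn, the gene of necdin, a MAGE family protein of postmitotic neurons in the Prader-Willi domain, lies at chr7:62348277-62349928 on the plus strand. It measured 10.08, 10.26, 9.78, 10.16 and 9.91 in DU6 and 9.59, 9.74, 9.86, 9.68 and 9.95 in FztDU. DU6 replicates 1, 2 and 4 lay above every FztDU mouse, and the other DU6 mice lay within the FztDU range. The means were 10.04 ± 0.19 and 9.76 ± 0.14 (SD, n = 5 per line), and the difference was 0.27 (SE 0.11, 95% interval 0.03 to 0.52) or 1.21-fold. limma gave an unadjusted p of 0.0332 and an adjusted p of 0.796, and the exact permutation test gave 0.0476, where the smallest p that 5 mice against 5 allow is 0.00794. Ndn was the 1 member of 30 with an exact p under 0.05. The share of all clusters with such an exact p was not computed. DU6 replicate 2, its highest mouse, carries the high cerebellar markers. Without that array the Ndn difference was 0.22 with an unadjusted limma p of 0.0813, and without the 3 arrays high in choroid plexus markers it was 0.35 with a p of 0.0379.

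No other gene of the Prader-Willi domain had an unadjusted p under 0.05. The domain is described here by 5 genes found by a single symbol, between 59228750 and 62464510 on chromosome 7, together with the cluster shared by Snrpn and Snurf. Magel2, which encodes another MAGE protein and acts in endosomal protein recycling, was called expressed in neither line, the only member of the 30 with that mark. It measured 3.82, 3.27, 3.32, 4.07 and 3.52 in DU6 and 3.66, 3.79, 3.98, 3.30 and 3.07 in FztDU, a difference of 0.04 (95% interval -0.38 to 0.46). Its means were 3.6 and 3.56. Calcr, Asb4 and Phlda2, each called expressed in both lines, had lower means than Magel2 in both lines. They fell among the lowest 25% of clusters, so the mark does not order the members by signal. Mkrn3, the gene of a ring finger ubiquitin ligase that holds back puberty, measured 3.44, 3.80, 3.32, 3.75 and 3.28 in DU6 and 3.47, 4.14, 3.37, 3.22 and 3.6 in FztDU, a difference of -0.04 (95% interval -0.41 to 0.33). The lines overlapped almost entirely for Magel2 and Mkrn3.

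Peg12, also known as Frat3 and related to inhibitors of glycogen synthase kinase, measured 4.40, 4.38, 4.38, 4.45 and 4.83 in DU6 and 4.52, 4.56, 3.78, 4.42 and 4.38 in FztDU. In each line 4 mice lay together and a single mouse stood apart, high in DU6 and low in FztDU, and the difference was 0.16 (95% interval -0.18 to 0.49). The shared cluster of Snrpn and Snurf, of which Snrpn encodes a spliceosomal protein of neurons, measured 11.92, 11.97, 11.93, 11.85 and 11.75 in DU6 and 11.80, 11.81, 11.90, 11.74 and 11.88 in FztDU. Its difference was 0.06 (95% interval -0.13 to 0.24), and neither line lay apart from the other. Ube3a, the ubiquitin ligase whose loss from the maternal copy causes Angelman syndrome and the maternally expressed gene of the domain, measured 8.12, 8.31, 8.20, 8.01 and 8.11 in DU6 and 8.10, 8.19, 8.16, 8.12 and 8.13 in FztDU. Its difference of 0.01 (95% interval -0.18 to 0.20) was the smallest of the 30.

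Calcr, the calcitonin receptor, which neurons use in the control of feeding, had the largest difference among the maternally expressed genes. It measured 3.12, 2.67, 2.73, 3.59 and 3.56 in DU6 and 2.91, 2.70, 2.74, 2.91 and 2.59 in FztDU. These values are low: the means of 3.13 and 2.77 lay below those of Magel2, which was called expressed in neither line. DU6 replicates 1, 4 and 5 lay above all FztDU mice, whereas DU6 replicates 2 and 3 lay among them, and the SD was 0.44 in DU6 against 0.14 in FztDU. The difference was 0.36 (95% interval -0.03 to 0.76), with a limma p of 0.0666, an adjusted p of 0.898 and an exact permutation p of 0.151. DU6 replicates 1 and 5 are arrays high in choroid plexus markers, and without the 3 such arrays the Calcr difference was 0.18 with an unadjusted limma p of 0.416. Without the array high in cerebellar markers it was 0.48 with a p of 0.0154. With the marker means as covariates it was 0.47 with a p of 0.0326. With every array kept, the unadjusted limma p was 0.0434 after quantile normalization and 0.0307 with array weights. It was 0.0739 with arrays centred on medians, 0.0622 with another variance model and 0.056 with the replicate number as a block. Calcr thus passed or missed an unadjusted 0.05 with the arrays included, the normalization, the weights and the model.

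Calcr belongs to the domain of Peg10 on chromosome 6 with Asb4, Sgce and Peg10, all 4 of which had means above those of FztDU without an adjusted call. Asb4, a maternally expressed subunit of a ubiquitin ligase found in hypothalamic feeding neurons, measured 3.30, 3.39, 3.20, 3.18 and 3.46 in DU6 and 3.48, 3.01, 2.94, 3.30 and 2.88 in FztDU, a difference of 0.18 (95% interval -0.09 to 0.46). The DU6 mice lay close together within a wider FztDU range, and the Asb4 difference was 0.0075 without the 4 marker-high arrays. Sgce, the paternally expressed epsilon-sarcoglycan, whose loss causes myoclonus dystonia in humans, measured 8.24, 8.04, 8.12, 7.96 and 8.15 in DU6 and 8.28, 8.01, 7.81, 8.02 and 8.0 in FztDU, a difference of 0.08 (95% interval -0.15 to 0.30).

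Peg10, a paternally expressed gene derived from a retrotransposon and needed for the placenta, starts head to head with Sgce on the opposite strand, with 101 bases between the annotated genes. It measured 6.10, 6.94, 5.95, 5.92 and 6.53 in DU6 and 6.46, 6.08, 6.12, 5.97 and 5.88 in FztDU. DU6 replicates 2 and 5 were highest, and the other 3 DU6 mice lay in the FztDU range. The difference was 0.19 (95% interval -0.23 to 0.60), and it turned to -0.22 without the 4 arrays high in choroid plexus or cerebellar markers, which include both of those mice.

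**Figure D2:**
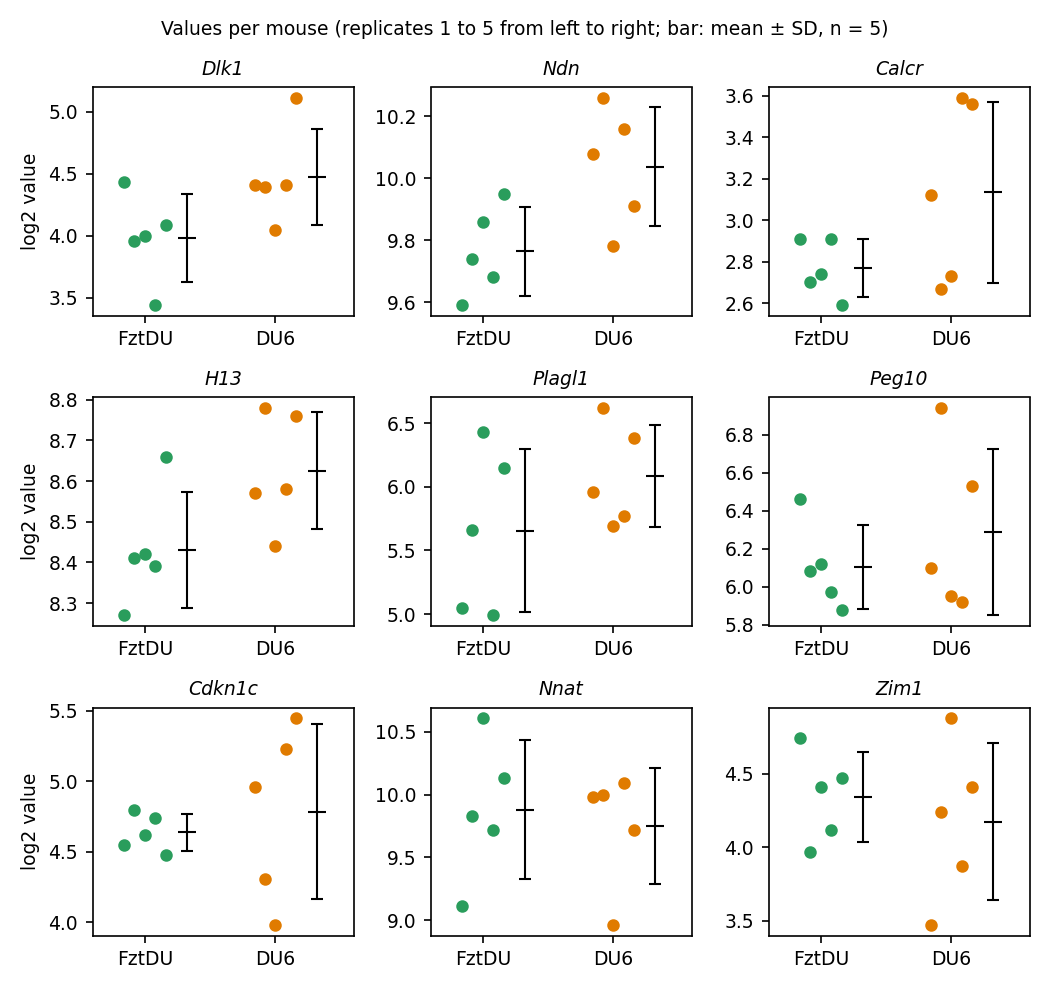
Log2 values of the 9 genes with the largest line differences or the largest spread within a line, 1 point per mouse in order of replicate number from left to right, with the mean ± SD (n = 5) beside each group; each panel has its own axis range, which does not start at 0. The lines overlap in every panel, and Calcr and Cdkn1c spread more widely among DU6 mice than among FztDU mice.

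Plagl1, a paternally expressed zinc finger transcription factor that governs a network of growth genes, had the second largest difference and the widest spread of the 30. It measured 5.96, 6.62, 5.69, 5.77 and 6.38 in DU6 and 5.05, 5.66, 6.43, 4.99 and 6.15 in FztDU. FztDU replicates 1 and 4 lay below all other mice, while FztDU replicate 3 exceeded 4 of the 5 DU6 mice. The difference was 0.43 (95% interval -0.18 to 1.04), with an adjusted limma p of 0.980 and SDs of 0.40 in DU6 and 0.64 in FztDU. The highest DU6 mice were replicates 2 and 5, arrays high in cerebellar and choroid plexus markers, and the Plagl1 difference was 0.20 without the 4 marker-high arrays, 0.15 with the marker means as covariates and 0.26 without FztDU replicate 4 alone. H13, the signal peptide peptidase gene, for which the active copy depends on the transcript, measured 8.57, 8.78, 8.44, 8.58 and 8.76 in DU6 and 8.27, 8.41, 8.42, 8.39 and 8.66 in FztDU. Apart from FztDU replicate 5 the DU6 mice lay above the FztDU mice, and the difference was 0.20 (95% interval -0.03 to 0.42) with an adjusted limma p of 0.928 and an exact permutation p of 0.0794. Without the 4 marker-high arrays the H13 difference was 0.14, and with the covariates it was 0.09.

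Growth restrainers expressed from the maternal copy did not differ by a call. Cdkn1c, which encodes the cyclin-dependent kinase inhibitor p57, measured 4.96, 4.31, 3.98, 5.23 and 5.45 in DU6 and 4.55, 4.80, 4.62, 4.74 and 4.48 in FztDU. DU6 mice lay on both sides of the narrow FztDU range, with an SD of 0.62 against 0.13, and the difference was 0.15 (95% interval -0.37 to 0.67). It changed sign to -0.17 without the 3 arrays high in choroid plexus markers, 2 of which are DU6 replicates 1 and 5. Its neighbour Phlda2, a pleckstrin homology protein that limits placental growth, measured 2.95, 2.86, 2.78, 2.70 and 2.85 in DU6 and 2.68, 2.90, 2.76, 2.97 and 3.01 in FztDU, a difference of -0.04 (95% interval -0.25 to 0.17).

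Grb10, an adaptor that dampens insulin and IGF receptor signalling, is expressed from the maternal copy in most tissues and from the paternal copy in neurons. It measured 5.98, 6.29, 6.09, 5.93 and 6.29 in DU6 and 6.12, 6.18, 6.03, 5.76 and 6.61 in FztDU, a difference of -0.02 (95% interval -0.34 to 0.29). The highest and the lowest value were both from FztDU mice. Its neighbour Ddc, aromatic L-amino acid decarboxylase of dopamine and serotonin synthesis, measured 5.19, 4.99, 5.21, 4.89 and 5.53 in DU6 and 5.13, 5.14, 5.36, 5.48 and 5.44 in FztDU, a difference of -0.15 (95% interval -0.43 to 0.13).

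Across the domain of Peg3 the means were slightly lower in DU6 without a call. Peg3, a large zinc finger protein linked to maternal care and growth, and Usp29, a gene of the deubiquitinase family, run in opposite directions from starts close together, with 169 bases between the annotated genes. Peg3 measured 8.61, 8.57, 8.52, 8.39 and 8.52 in DU6 and 8.41, 8.71, 8.67, 8.30 and 8.72 in FztDU, a difference of -0.04 (95% interval -0.27 to 0.19). Usp29 measured 7.58, 7.80, 7.78, 7.49 and 8.14 in DU6 and 7.81, 7.82, 7.78, 7.65 and 8.04 in FztDU, a difference of -0.06 (95% interval -0.34 to 0.22). For both genes the lines overlapped. Peg3 values spread more widely in FztDU (SD 0.19 against 0.083) and Usp29 values in DU6 (SD 0.25 against 0.14).

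Zim1, the maternally expressed zinc finger gene of that domain, measured 3.47, 4.24, 4.88, 3.87 and 4.41 in DU6 and 4.74, 3.97, 4.41, 4.12 and 4.47 in FztDU. The highest and the lowest mouse were both DU6, with SDs of 0.54 and 0.30, and the difference was -0.17 (95% interval -0.67 to 0.34). Nnat, a paternally expressed proteolipid gene of neurons and endocrine cells that lies inside an intron of Blcap, measured 9.98, 10, 8.96, 10.09 and 9.72 in DU6 and 9.11, 9.83, 10.61, 9.72 and 10.13 in FztDU. A single low DU6 mouse and a spread of values in FztDU gave SDs of 0.46 and 0.55 and a difference of -0.13 (95% interval -0.71 to 0.45). Without the 4 marker-high arrays the Nnat difference was -0.29. Blcap, a small membrane protein whose transcripts differ in imprinting, measured 7.21, 7.33, 6.91, 7.64 and 7.2 in DU6 and 6.98, 7.23, 7.17, 7.36 and 7.24 in FztDU, a difference of 0.06 (95% interval -0.22 to 0.35).

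Zrsr1, a paternally expressed splicing factor gene that arose by retroposition, lies within the span of Commd1, a maternally biased gene of copper handling and NF-kappaB control. Zrsr1 measured 7.06, 7.08, 6.75, 6.60 and 6.76 in DU6 and 6.95, 7.12, 6.76, 6.92 and 6.82 in FztDU, a difference of -0.06 (95% interval -0.32 to 0.19). Commd1 measured 6.43, 6.03, 6.24, 6.05 and 5.83 in DU6 and 6.36, 6.01, 6.04, 6.09 and 6.19 in FztDU, a difference of -0.02 (95% interval -0.29 to 0.24). Host and guest gene each overlapped between the lines.

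The remaining members had no neighbour among the 30. Mest, a hydrolase-like gene whose level follows the expansion of fat tissue in mice, ran from 8.77 to 9.49 in DU6 and from 8.52 to 9.39 in FztDU, with a difference of 0.09 (95% interval -0.31 to 0.48). Rasgrf1, an exchange factor for Ras in synaptic signalling, ran from 7.27 to 8.07 and from 7.72 to 8.16, with a difference of -0.16 (95% interval -0.50 to 0.18), and its lowest mouse was DU6 replicate 2, the array high in cerebellar markers, without which the Rasgrf1 difference was -0.0185. For Impact, an inhibitor of the amino acid sensor GCN2 that is abundant in neurons, the ranges were 10.40 to 10.54 and 10.32 to 10.63 and the difference 0.02 (95% interval -0.18 to 0.22). These genes too overlapped between the lines.

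Gnas, the gene of the stimulatory G protein alpha subunit with oppositely imprinted transcripts, ran from 10.81 to 11.02 in DU6 and from 10.71 to 11.01 in FztDU, with a difference of 0.04 (95% interval -0.16 to 0.24). Trappc9, a maternally biased gene of vesicle traffic whose loss in humans impairs brain growth, ran from 7.58 to 7.82 and from 7.50 to 8.03, with a difference of -0.02 (95% interval -0.26 to 0.22). Nap1l5, a paternally expressed retrogene of the nucleosome assembly protein family, differed by 0.13 (95% interval -0.23 to 0.48), and Inpp5f, an inositol phosphatase with a paternally expressed short transcript in brain, differed by 0.11 (95% interval -0.20 to 0.42). Without the array high in cerebellar markers the differences were 0.0085 for Nap1l5 and 0.03 for Inpp5f. Neither gene's lines lay apart, and this pair is taken up again for its variation among mice.

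Variation among mice was not the same in every array. Of the 30 genes, DU6 replicate 2 was the highest mouse for 8 and DU6 replicate 5 for 6, while FztDU replicate 4 was the lowest for 8 and FztDU replicate 1 for 6. The SD was larger in DU6 for 15 genes and larger in FztDU for the other 15, while the median SD was 0.235 in DU6 and 0.186 in FztDU, against 0.212 and 0.192 over all clusters. DU6 replicates 2 and 5 carry the cerebellar and the choroid plexus and thalamic markers named above, whereas FztDU replicates 1 and 4 are not among the arrays named as high. In thalamic markers, though, FztDU replicate 1 (7.66) and FztDU replicate 4 (6.46) were the highest and the lowest of the arrays not named as high. The part of tissue makeup in the highest and lowest values of the 30 genes was not tested. In whole hippocampi fewer cells of a type and less RNA per cell cannot be told apart.

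**Figure D3:**
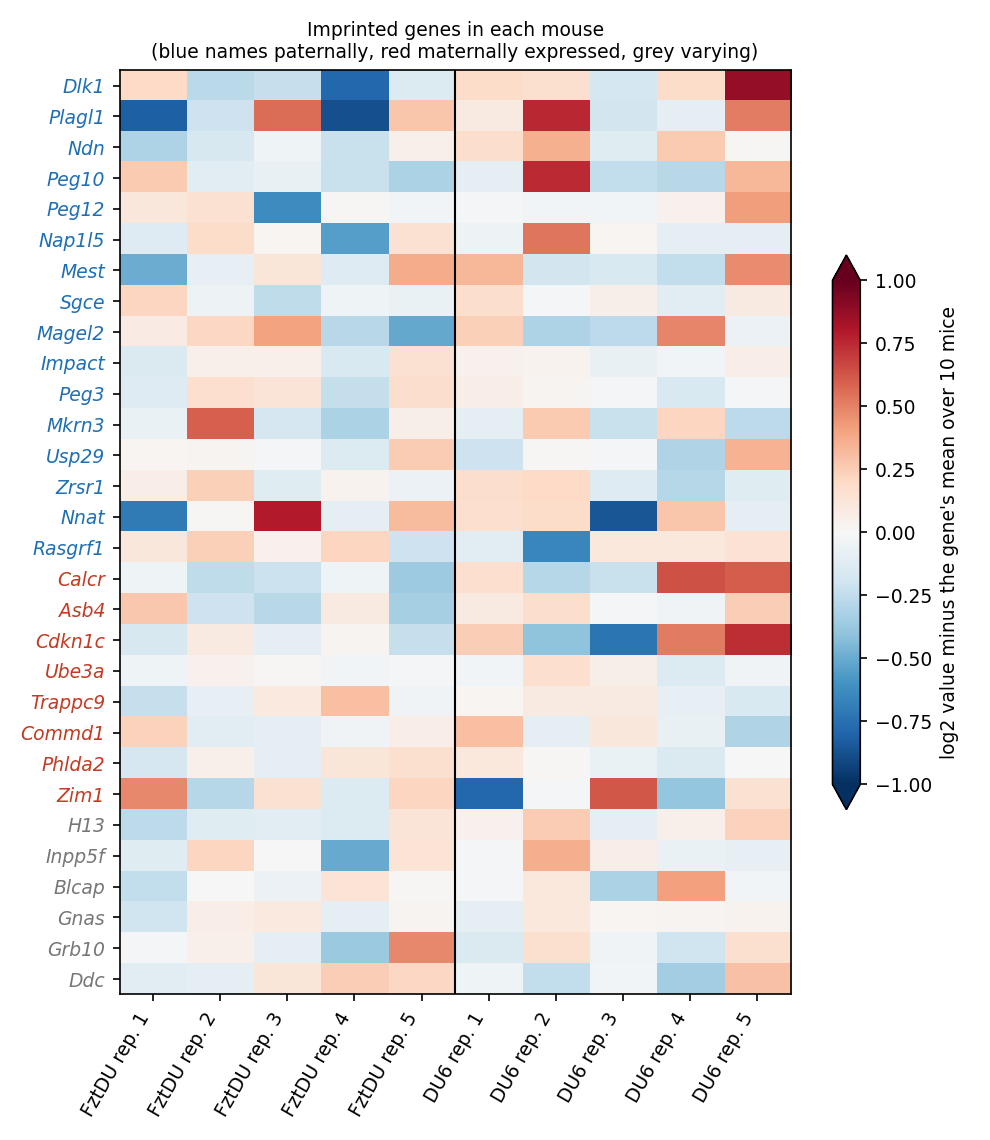
Log2 value minus the gene's mean over the 10 mice, for each of the 30 genes (rows, names coloured by parental class) in each mouse (columns, FztDU on the left and DU6 on the right); red is above and blue below the mean. Strong colours sit in single mice, such as Dlk1 in DU6 replicate 5 and Nnat in FztDU replicate 3, rather than filling the columns of a line.

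No pair of neighbours in a domain passed the test of covariation among mice, which permuted the mice within lines. Over 11 neighbouring pairs, the correlation of deviations from the line means across the 10 mice ran from -0.097 for Peg3 with Zim1 to 0.634 for Nnat with Blcap, with a median of 0.25. The latter had a permutation p of 0.0599, 0.542 after Benjamini-Hochberg adjustment over the 11 pairs (Spearman's rho 0.539, p 0.129), and r fell to -0.026 once the 2 mice farthest from the Nnat median were left out. Snrpn with Ube3a had an r of 0.552 (permutation p 0.182, 0.680 without 2 such mice, rho 0.732 with p 0.0343 and adjusted p 0.377), and Peg3 with Usp29, whose promoter windows overlap as shown above, had an r of 0.402 (permutation p 0.170, 0.303 without 2 such mice, rho 0.340 with p 0.252). None of the 11 pairs had an adjusted p under 0.05 or an unadjusted p of r under 0.05.

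Members on different chromosomes did covary closely in 2 cases. Among all 435 pairs of the 30 genes, a family added after seeing the data, 32 had a permutation p under 0.05 and 2 an adjusted p under 0.05. The same shares over pairs of all clusters were not computed, so whether these counts are particular to the members was not tested. Nap1l5 on chromosome 6 measured 9.68, 10.26, 9.75, 9.63 and 9.63 in DU6 and 9.60, 9.91, 9.75, 9.18 and 9.88 in FztDU, and Inpp5f on chromosome 7 measured 8.67, 9.05, 8.75, 8.62 and 8.60 and 8.56, 8.90, 8.69, 8.18 and 8.82. DU6 replicate 2 was highest and FztDU replicate 4 lowest for both, and the mice between kept nearly the same order.

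The correlation of Nap1l5 and Inpp5f was 0.982 (permutation p 0.00019, adjusted 0.0413, Spearman's rho 0.985 with p 0.00019). It was 0.984 without the 2 mice farthest from the Nap1l5 median, 0.990 within DU6, 0.997 within FztDU and 0.997 without the 4 arrays high in choroid plexus or cerebellar markers. Each gene ranked first for the other among 22205 other clusters, but 62 clusters had an r over 0.9 with Nap1l5 and 49 with Inpp5f, so the closeness was not limited to this pair.

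The second pair was Usp29 with Grb10, on chromosomes 7 and 11. Its r was 0.792 (permutation p 0.00014, adjusted 0.0413, rho 0.906 with p 0.00107), and it was 0.932 without the 2 mice farthest from the Usp29 median, 0.868 within DU6 and 0.997 within FztDU. FztDU replicate 5 was highest for Grb10 and DU6 replicate 5 for Usp29, both of them arrays high in choroid plexus and thalamic markers, and r was 0.794 without the 4 arrays high in choroid plexus or cerebellar markers. How many other clusters followed Usp29 or Grb10 as closely was not counted.

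**Figure D4:**
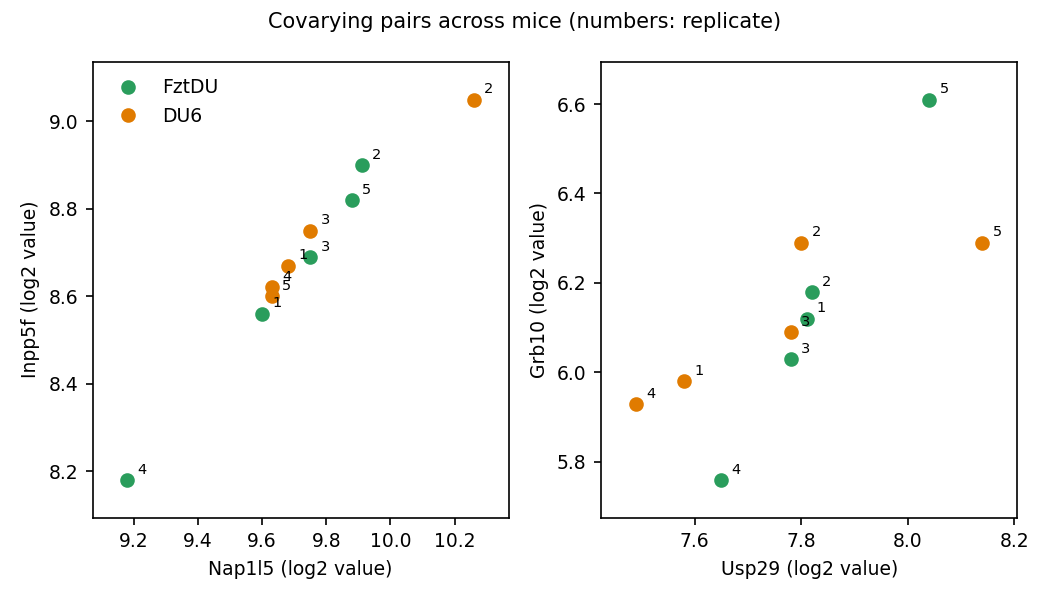
Log2 values of Nap1l5 against Inpp5f (left) and of Usp29 against Grb10 (right), 1 point per mouse with its replicate number, FztDU in green and DU6 in orange. The Nap1l5 and Inpp5f points lie along a line from FztDU replicate 4 to DU6 replicate 2, and the Usp29 and Grb10 points rise together with more scatter.

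A further list of imprinted genes outside the 31 held no adjusted call either. Of 56 listed, 46 were found, none had an adjusted p under 0.05, 4 (8.70%, against 5.86% of all clusters) had an unadjusted p under 0.05 and the median log2 difference was 0.06. Higher in DU6 at that level were Dio3, the deiodinase that inactivates thyroid hormone and shares a domain with Dlk1, at 0.64 (95% interval 0.12 to 1.16, adjusted limma p 0.706), and Cdh15, a cadherin, at 0.39 (adjusted p 0.819). Both were called expressed in DU6 only by the authors' table, and both had an exact permutation p of 0.0714. Lower were the serotonin receptor gene Htr2a at -0.42 (95% interval -0.73 to -0.11, adjusted limma p 0.643) and Ago2, an effector of small RNA silencing, at -0.23 (adjusted p 0.788). Ago2 ran from 8.13 to 8.44 in DU6 and from 8.46 to 8.66 in FztDU. It was the only 1 of the 46 without overlap between the lines, beside 1.22% of all clusters. The largest differences were 0.80 for Dcn, the proteoglycan decorin (95% interval -0.22 to 1.81), and that of Dio3. DU6 replicate 2, the array high in cerebellar markers, was the highest mouse for Dio3 (4.21), Cdh15 (3.94) and Dcn (9.71). It was the lowest for Htr2a (6.49) but not for Ago2 (8.32). Differences without the marker-high arrays are not given for this list, and the part of tissue makeup in them was not tested.

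Genes that lay down or keep imprints were all measured, 24 of 24, with none at an adjusted p under 0.05 and a median log2 difference of -0.03. Dnmt3a, the methyltransferase that sets imprints in germ cells, measured 6.39, 6.54, 6.71, 6.45 and 6.54 in DU6 and 6.77, 6.93, 6.76, 6.84 and 6.57 in FztDU. Of the FztDU mice 4 lay above every DU6 mouse, and the difference was -0.25 (95% interval -0.46 to -0.03) with an adjusted limma p of 0.769 and an exact permutation p of 0.0159. It was the only 1 of the 24 at an unadjusted p under 0.05, a share of 4.17% against 5.86% of all clusters. Uhrf1, which guides methylation to newly made DNA, had the next largest difference, 0.22 (95% interval -0.05 to 0.49).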

How the data were processed

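Hippocampal RNA of 5 DU6 and 5 FztDU mice was hybridised to Clariom S Mouse arrays. The authors normalized the intensities with the SST-RMA method in the Transcriptome Analysis Console and deposited log2 values of 22206 transcript clusters per array with mm10 annotation. These were used as deposited. The deposited comparison table supplied symbols, positions and calls of expression per line, and its averages, fold changes, p-values and false discovery rates were not used. Arrays carry no counting depth, so their number limits the precision.

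Lines were compared with limma 3.58.1 in R 4.3.3 (lmFit, eBayes, two-sided, Benjamini-Hochberg adjustment over all clusters, no filter). A check on simulated data planted differences larger than that of any member, so it does not cover differences of the members' size. Exact two-sided permutation tests used all 252 splits of the arrays, and correlations 100000 permutations within lines. RefSeq promoter windows came from GRCm38.p6. The plots come from matplotlib 3.10.9 (Python 3.11.15). Biological replicates are labelled as such, and replicate numbers name the mice. Members, parental classes and lists were chosen with earlier results of these data known. All members are named, with values per mouse for those with an unadjusted p under 0.05, with the 5 largest differences or spreads, or with a neighbour in their domain. Alternatives changed normalization, filter, variance model, array weights, replicate block, arrays included, marker covariates and thresholds.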

Additional observations from a re-analysis of the deposited data

Results flagged for a closer look

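Each gene was checked in each line of 5 mice for a mouse standing far from the other 4, and 3 of 62 such groups held one. Chance gives about 1 in 20. For Peg12, DU6 replicate 5 measured 4.83 where the next mouse measured 4.45, and FztDU replicate 3 measured 3.78 where the next measured 4.38, so a single mouse stood apart on opposite sides in the 2 lines. For Nap1l5, DU6 replicate 2, the array with high cerebellar markers, measured 10.26 where the next mouse measured 9.75.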

How the results depend on the processing

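No member was called, and none had an adjusted limma p under 0.05, under any alternative run. The smallest adjusted p of a member was 0.591. The median differences of the members and of the maternal and paternal classes moved by less than the spread between mice but lay so near 0 that signs turned. The median of all members was -0.0011 with covariates, and with 1 array left out that of the maternal class ran from -0.015 to 0.03 and that of the paternal class from -0.008 to 0.09. Of the 30 genes, 11 kept their direction under all alternatives run for them, Dlk1, Ndn and Calcr among them. The count at an unadjusted p under 0.05 was 2 in the main fit, 3 after quantile normalization and 3 with array weights. It was 1 with the lowest 50% of clusters left out, a filter that removed Dlk1 and kept 20 members. Without the 3 arrays high in choroid plexus markers it was 1, against 5.42% of all clusters. Without the 4 arrays high in choroid plexus or cerebellar markers it was 0, against 4.82%. With the marker means as covariates it was 1 (Calcr). With 1 array left out it ran from 0 (without FztDU replicate 2 or 4) to 4 (without DU6 replicate 3, where Calcr and H13 joined Dlk1 and Ndn), and it was 1 without DU6 replicate 1, 4 or 5. Without DU6 replicate 2, the array high in cerebellar markers, it was 2, against 6.55% of all clusters. For the other single arrays left out the share of all clusters is not given. The count of genes with an exact permutation p under 0.05, 1 with all arrays, ran from 0 (lacking replicate 1 or 4 of DU6, or 2 or 4 of FztDU) to 3 (without DU6 replicate 3), with 2 without FztDU replicate 5, and was 0 without the 4 arrays, where 2 mice against 4 cannot reach it. The share of all clusters at such an exact p was not computed. The count of genes without overlap, 0 with all arrays, ran from 0 to 1 (without FztDU replicate 5) with 1 array left out. It was 1 without the 3 arrays (H13, against 5.9% of all clusters) and 3 without the 4 arrays (H13, Peg10 and Zrsr1, against 11.8%).

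Same-numbered mice are not stated to be paired. Their deviations correlated at over 0.1 in 3 of 5 pairs, with a mean r of 0.104 against -0.026 for other numbers. With the replicate number as a block the count at an unadjusted p under 0.05 was 1, since the limma p was 0.0646 for Ndn and 0.0239 for Dlk1, and no adjusted call arose. None of the 11 neighbouring pairs passed the adjusted threshold without the array high in cerebellar markers, without the 4 arrays or with line means kept. Without the 4 arrays, 2 DU6 and 4 FztDU mice allow so few permutations within lines that the threshold could hardly be reached.

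The sign of some uncalled differences turned, and the cause was not tested. With covariates the log2 differences were -0.0354 for Peg10, -0.0370 for Nap1l5, -0.0339 for Ube3a, -0.0047 for Inpp5f, 0.0480 for Rasgrf1, 0.0084 for Commd1 and -0.0328 for Impact. Without the 4 arrays they were -0.2225 for Peg10, -0.0525 for Mest, -0.0375 for Ube3a, 0.065 for Zim1, -0.0725 for Cdkn1c, 0.02 for Commd1 and -0.0025 for Impact. Without the 3 arrays they were -0.0458 for Mest, -0.129 for Magel2, 0.02 for Zim1, 0.0733 for Mkrn3, -0.171 for Cdkn1c, 0.0808 for Grb10 and 0.0108 for Trappc9. Array weights gave -0.0149 for Ube3a, 0.0308 for Commd1 and -0.0025 for Impact, and leaving out the array high in cerebellar markers gave -0.03 for Ube3a. With each array left out in turn, differences that changed sign ran for Blcap from -0.0335 to 0.15, Cdkn1c from -0.018 to 0.35, Commd1 from -0.10 to 0.0495, Gnas from -0.0075 to 0.068, Grb10 from -0.12 to 0.0935, Impact from -0.021 to 0.0565, Inpp5f from -0.0045 to 0.18, Magel2 from -0.0825 to 0.14, Mest from -0.026 to 0.19, Mkrn3 from -0.13 to 0.10, Nnat from -0.32 to 0.0675, Phlda2 from -0.082 to 0.0005, Trappc9 from -0.0785 to 0.054, Ube3a from -0.03 to 0.045, Usp29 from -0.16 to 0.005 and Zim1 from -0.34 to 0.008.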
